A study of Mus musculus with 6 samples.

Results

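Secreted antagonists of Wnt signalling were examined in synovial fibroblasts (SFs), the connective tissue cells of the joint lining, with and without the antipsychotic amisulpride, a blocker of dopamine and serotonin receptors. The members were chosen by gene name: the secreted frizzled-related proteins Sfrp1, Sfrp2, Sfrp4, Sfrp5 and Frzb, the Dickkopf proteins Dkk1, Dkk2 and Dkk3, and the Wnt inhibitory factor Wif1. All 9 were among the 49548 genes of the expression table, and 7 of them had values high enough to be tested. SFs came from the ankle joints of mice that carry a human TNF transgene (hTNFtg) and develop inflammatory arthritis. The mice were 8 weeks old when the cells were isolated, and the cultures had been depleted of CD45+ cells. Both groups carried the transgene. Treated SFs received 500 μM amisulpride for 48 hours (n = 3) and the other group had no treatment by its labels, although the methods speak of vehicle (n = 3). RNA was measured by 3′ mRNA sequencing, which reads the 3′ end of each transcript, and values are normalised counts, that is, reads divided by a factor for each library and rounded. The methods call the samples biological replicates, and how many mice each culture came from is not given in the sources used here.

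Wnt proteins bind Frizzled receptors together with the co-receptors Lrp5 and Lrp6, which keeps beta-catenin from being degraded and lets it act with TCF/LEF factors on its target genes. Secreted frizzled-related proteins hold a cysteine-rich domain like that of Frizzled receptors and bind Wnt proteins outside the cell, as Wif1 also does through its own Wnt-binding domain. Dkk1 and Dkk2 instead bind Lrp5 and Lrp6, whereas Dkk3 is a divergent member of its family that is not a typical Lrp6 ligand. In arthritic joints, where Wnt signalling takes part in bone formation, Dkk1 is known as an inhibitor of osteoblasts that TNF can induce.

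The stretch just before the transcription start is shown for Sfrp2, the member with the lowest p-value, and for Dkk2, a tested member whose groups overlapped. RefSeq (GRCm38.p6) gave a promoter window for 6 of the 9 members, and in these 2 the 250 bases before the start held 0 bases of annotated exons. Capitals mark 3 motifs that were searched on both strands. The TCF/LEF core was CTTTGA, or alternatively ending in T in place of the last A as CTTTGT. The TATA box was searched with the letters TATAAA, and the GC box, which Sp1 binds, with the letters GGGCGG. No marked motifs overlap. The Sfrp2 window lies at chr3:83766071-83766320 and the Dkk2 window at chr3:132085042-132085291, both on the plus strand, and each is printed 5′ to 3′.
Sfrp2: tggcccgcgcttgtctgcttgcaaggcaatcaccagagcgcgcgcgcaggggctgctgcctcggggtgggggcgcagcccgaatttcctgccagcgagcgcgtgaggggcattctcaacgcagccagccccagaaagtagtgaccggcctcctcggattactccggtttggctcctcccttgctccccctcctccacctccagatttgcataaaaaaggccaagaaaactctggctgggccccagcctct
Dkk2: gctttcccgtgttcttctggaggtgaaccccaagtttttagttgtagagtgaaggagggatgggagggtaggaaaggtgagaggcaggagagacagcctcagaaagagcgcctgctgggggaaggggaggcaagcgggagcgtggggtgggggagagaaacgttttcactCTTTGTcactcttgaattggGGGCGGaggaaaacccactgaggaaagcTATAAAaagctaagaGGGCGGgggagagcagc
The Sfrp2 window matched 0 of the 3 motifs and held 16 CpG dinucleotides with a GC content of 63.6%. The Dkk2 window held 7 CpG dinucleotides and a GC content of 55.6%, with a TCF/LEF core starting at position -80, GC boxes at -60 and -17 and a TATA box at -32 relative to the start. Among 32851 RefSeq promoters, 27.6% held the TCF/LEF core, 12.4% the TATA box and 32.7% the GC box in the same 250 bases, with a median of 6 CpG dinucleotides and a GC content of 52.4%. A match only describes these letters, and binding was not measured.

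The deposited values summed to between 3.83 and 4.50 M per library, and 16851 to 18364 genes were above 0. The size of the steps between low values gave approximate depths of 2.52 to 4.71 M reads, of which the depth of untreated replicate 1 was not well resolved. A value of 3 reads, taken here as the floor of detection, corresponded to between 2.50 and 5.37 normalised counts, and covers counting error only. Amisulpride replicate 3 had the lowest depth and stood apart on the leading principal component (37.1% of variance), at 73.9 against -38.2 to 10.4 for the other libraries, so changes past the thresholds are given with and without it. With limma on log2(value + 1), 719 of 12614 genes tested (5.7%) passed the study's thresholds, which ask for a log2 fold change of 1 or more in either direction and a p-value, before adjustment, under 0.05. These were 339 higher genes (2.69%) and 380 lower genes (3.01%). At an adjusted p-value under 0.05, 36 genes (0.285%) were called, or 263 with the replicate block, and the 3 libraries of each group did not overlap for 2076 genes (16.5%), with all treated libraries higher for 984 (7.8%) and lower for 1092 (8.66%).

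Sfrp2 was approximately 4-fold higher in treated SFs, Sfrp4 was higher from a very low level, and Frzb was lower. These 3 of the 7 tested members passed the study's thresholds, against 5.7% of all genes tested. That count includes Sfrp4, which reached the test through its treated values alone. The count was 2 with the filter at 20 and 1 without amisulpride replicate 3. In the main limma fit, which does not pair replicate numbers, 0 members had an adjusted p-value under 0.05, the lowest being 0.0652 for Sfrp2. No label says that equal replicate numbers share a source, and their pairing was inferred from these same values. With the replicate block, which pairs them, Sfrp2 had an adjusted limma p of 0.000527. It was also under 0.05 without a filter (0.0488), with weights per library (0.0188) and without amisulpride replicate 3 (0.0294). An unadjusted limma p-value under 0.05 was found for 5 members, Sfrp4 included, and for 1373 of the 12614 genes tested. The groups did not overlap for 5 members, against 16.5% of all genes tested. That count again includes Sfrp4, for which the filter fixed the outcome, since only its treated libraries reached the minimum value. Sfrp1, Sfrp2, Sfrp4 and Dkk3 were higher in every treated library, and Frzb lower in every treated library. Dkk2 and Wif1 overlapped between the groups, and Sfrp5 and Dkk1 were too low to be tested. The tested members had a median log2 fold change of 0.78 against 0.0016 for all genes tested. This is a description only, since it includes Sfrp4, which was tested through its treated values alone. The median of the tested members was 0.34 without amisulpride replicate 2 and 0.24 without amisulpride replicate 3. Sfrp4 was not tested in these fits, so these medians are over a different set of members and do not show the weight of a library alone. In these bulk cultures, a change in the number of cells that express a gene and a change in RNA per cell cannot be told apart.

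**Figure D1:**
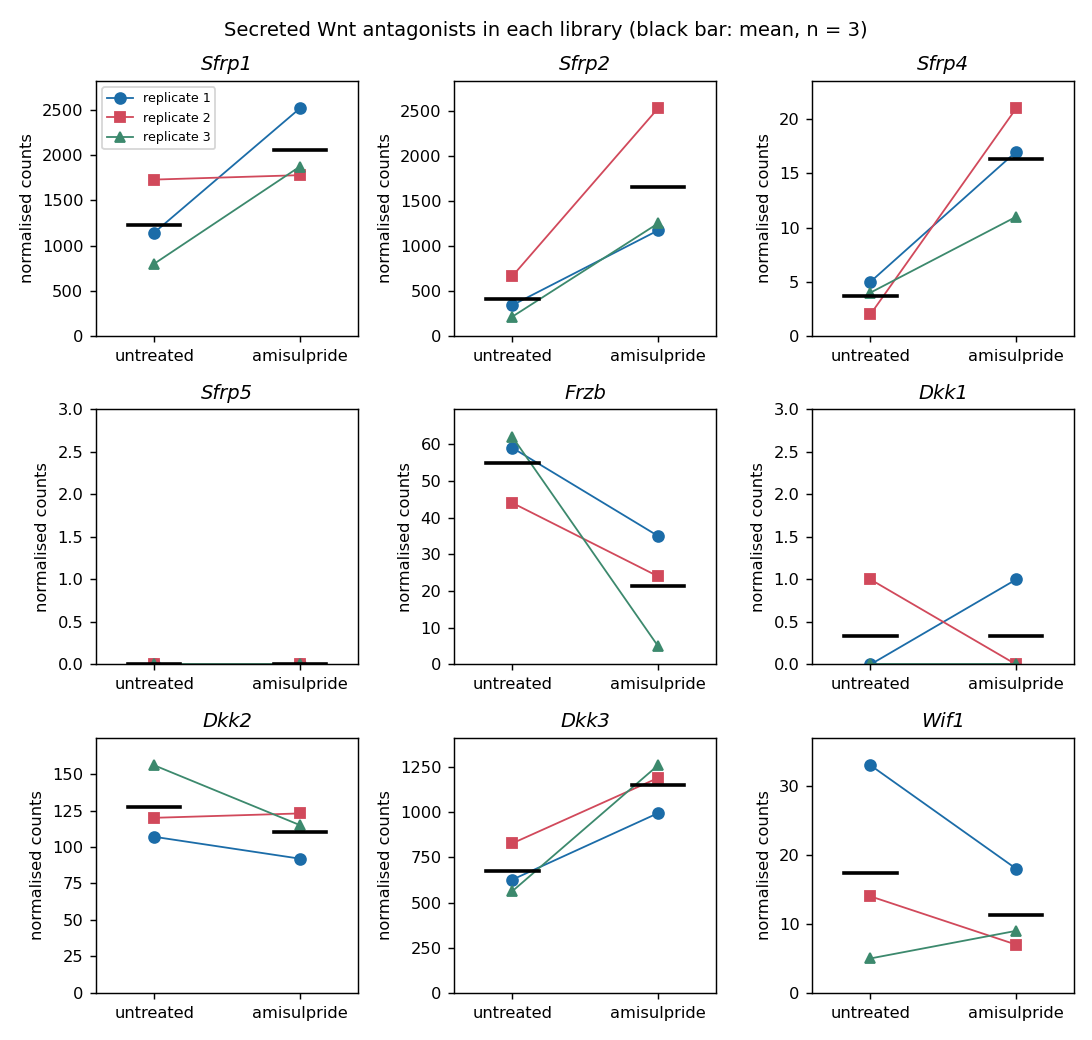
Normalised counts (y axis, from 0, with its own scale in each panel) of the 9 secreted Wnt antagonists in untreated and amisulpride-treated hTNFtg SFs. Points are libraries, lines join libraries with the same replicate number, and black bars are means (n = 3). Sfrp2 rose along all 3 lines and Frzb fell along all 3, while Sfrp5 was at 0 in every library.

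Sfrp2 (ENSMUSG00000027996, mm10 chromosome 3, 83766321 to 83774316, plus strand) binds Wnt proteins and is abundant in fibroblasts of many tissues. Its normalised counts were 343, 666 and 215 in untreated replicates 1, 2 and 3 and 1175, 2534 and 1253 in amisulpride replicates 1, 2 and 3. Every treated library was above every untreated library, and replicate 2 was the highest library of both groups. The means were 408 ± 232 in untreated and 1654 ± 763 in treated SFs (SD, n = 3), a ratio of 4.05. The log2 fold change was 2.08 ± 0.41 (SE), with a 95% interval from 1.17 to 2.99, and Sfrp2 ranked 68th of 12614 genes by p-value (unadjusted limma p-value of 0.000352). Within replicate numbers the log2 difference was 1.77, 1.93 and 2.54. With the replicate block, which pairs libraries by replicate number, the estimate was the same and the adjusted limma p was 0.000527. Without amisulpride replicate 3 the log2 fold change was 2.23 and the adjusted limma p was 0.0294. The last 464 bases of Sfrp2 overlap the antisense gene Gm26771, which had at most 11 normalised counts in any library. Whether the counting used strand is not given in the sources used here, so reads in that stretch cannot be assigned with certainty.

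Sfrp1 (ENSMUSG00000031548, chromosome 8, 23411502 to 23449632, plus strand), the closest relative of Sfrp2 among well-expressed members, had the highest level of the family. It had 1143, 1730 and 799 normalised counts in the untreated libraries and 2518, 1779 and 1874 in the treated ones. The groups did not overlap, but untreated replicate 2 and amisulpride replicate 2 were only 0.04 apart on the log2 scale, against 1.14 and 1.23 in replicates 1 and 3. From 1224 ± 471 to 2057 ± 402 (SD, n = 3), the log2 fold change was 0.80 ± 0.31 (95% interval 0.13 to 1.48, limma adjusted p = 0.353). It did not pass the study's thresholds. Without untreated replicate 2 the value was 1.09 and did pass (unadjusted limma p-value of 0.00624), without untreated replicate 3 it was 0.53, and without amisulpride replicate 3 it was 0.86.

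Sfrp4 (ENSMUSG00000021319, chromosome 13, 19623175 to 19632821, plus strand), another Wnt-binding member that is best known in bone and connective tissue, was near the limit of detection in untreated SFs. Its values were 5, 2 and 4 in untreated libraries and 17, 21 and 11 in treated libraries. The value of untreated replicate 2 was under that library's floor of 3.17. The means of 3.67 ± 1.53 and 16.3 ± 5.03 (SD, n = 3) gave a log2 fold change of 1.91 ± 0.60 (95% interval 0.58 to 3.23, unadjusted limma p-value of 0.00877, adjusted p = 0.245). With only treated libraries at 10 or above, Sfrp4 could be tested only because it was high in treated SFs, and it was not tested when any treated library was left out.

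Sfrp5 (ENSMUSG00000018822, chromosome 19, 42197971 to 42202252, minus strand), known as an adipokine, was at 0 in all 6 libraries. Given the floors, a level of up to 2.50 to 5.37 normalised counts per library was not detectable.

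Frzb (ENSMUSG00000027004, chromosome 2, 80411970 to 80447625, minus strand), also named Sfrp3 and known from cartilage and joint development, was lower in treated SFs. It had 59, 44 and 62 normalised counts in untreated libraries and 35, 24 and 5 in treated libraries. Every treated library was below every untreated one. Amisulpride replicate 3, the shallowest library, was lowest and, as values are rounded, at its floor of 5.37. The means were 55.0 ± 9.64 and 21.3 ± 15.2 (SD, n = 3), with a log2 fold change of -1.66 ± 0.58 (95% interval -2.93 to -0.39, unadjusted limma p-value of 0.0148, adjusted p = 0.293). Replicate numbers 1 and 2 gave log2 differences of -0.74 and -0.85 and replicate 3 gave -3.39. Without amisulpride replicate 3 the log2 fold change was -0.89, no longer past the thresholds. Without untreated replicate 1 or 3 it was -1.60 and -1.57, with unadjusted limma p-values of 0.0513 and 0.0507.

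Dkk3 (ENSMUSG00000030772, chromosome 7, 112116017 to 112159057, minus strand) was the most abundant Dickkopf gene. Untreated libraries had 627, 828 and 563 normalised counts and treated libraries 995, 1190 and 1260. The groups did not overlap, and the 3 treated values lay close together. From 673 ± 138 to 1148 ± 137 (SD, n = 3), the log2 fold change was 0.78 ± 0.25 (95% interval 0.24 to 1.33, unadjusted limma p-value of 0.00867, adjusted p = 0.245), under the study's fold threshold. Log2 differences within replicate numbers were 0.67, 0.52 and 1.16, and without amisulpride replicate 3 the log2 fold change was 0.71.

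Dkk2 (ENSMUSG00000028031, chromosome 3, 132085292 to 132180304, plus strand), an Lrp5 and Lrp6 ligand, had 107, 120 and 156 normalised counts in untreated and 92, 123 and 115 in treated libraries. The groups overlapped, and the log2 fold change of -0.21 ± 0.27 had a 95% interval from -0.80 to 0.39 (limma adjusted p = 0.823), or -0.24 without amisulpride replicate 3. The interval left room for a modest fall or rise, so that equal levels were not shown. Dkk1 (ENSMUSG00000024868, chromosome 19, 30545863 to 30549665, minus strand) was at 1 in untreated replicate 2 and amisulpride replicate 1 and at 0 in the other 4 libraries, under the floor throughout.

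Wif1 (ENSMUSG00000020218, chromosome 10, 121033960 to 121100650, plus strand) was low and variable, with 33, 14 and 5 normalised counts in untreated and 18, 7 and 9 in treated libraries. The groups overlapped, and replicate 1 was highest in both. Its log2 fold change of -0.34 ± 0.67 had a 95% interval from -1.80 to 1.13 (limma adjusted p = 0.885), and was -0.24 without amisulpride replicate 3. Over the 11 alternatives that tested it, the value ranged from -0.97 without untreated replicate 3 to -0.00059 with weights per library.

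**Figure D2:**
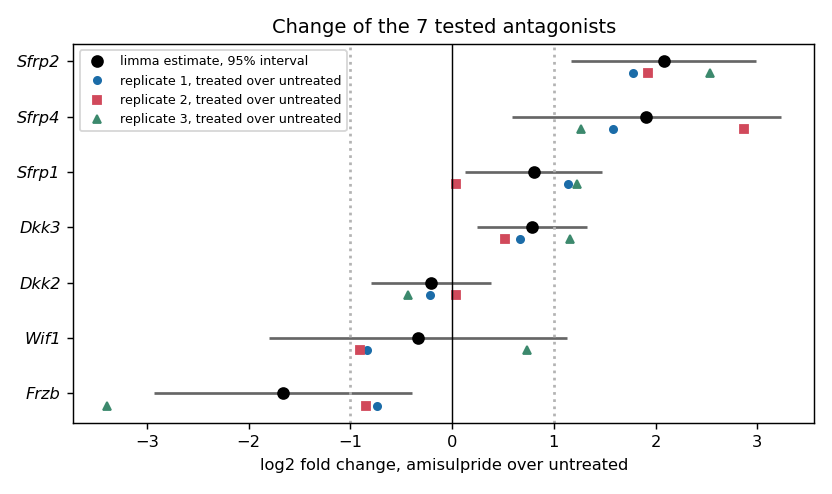
Log2 fold change of amisulpride over untreated (x axis) for the 7 tested members. Black points with lines are limma estimates with 95% intervals, coloured points are log2 differences within each replicate number, and dotted lines mark -1 and 1. Sfrp2, Sfrp4 and Frzb lie beyond the dotted lines, and replicate 3 of Frzb, at -3.39, lies far from its replicates 1 and 2.

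The make-up of the antagonist transcripts was compared as shares of their summed value. Since 3′ libraries read each transcript near its end, values were not divided by transcript length, and differences in how well each 3′ end was captured were not tested. Summed over the 9 members, untreated libraries had 2317, 3405 and 1804 normalised counts and treated libraries 4851, 5678 and 4527. The means were 2509 ± 818 and 5019 ± 594 (SD, n = 3), and every treated sum was above every untreated sum. Sfrp1, Sfrp2 and Dkk3 made up most of each sum. Sfrp2 took 14.8%, 19.6% and 11.9% of the sum in untreated and 24.2%, 44.6% and 27.7% in treated libraries. These shares did not overlap between groups and differed by 16.7 percentage points between the means, or 10.5 points without amisulpride replicate 2, the library with the highest share. The mean share of Sfrp1 was 48.1 ± 3.42% in untreated and 41.5 ± 10.3% in treated SFs (SD, n = 3), with overlapping libraries. The share of Frzb was 2.43 ± 1.08% in untreated and 0.418 ± 0.306% in treated SFs. That of Dkk2 was 5.60 ± 2.70% and 2.20 ± 0.323%, while its own level overlapped between the groups and the sum it is divided by was higher in treated SFs. Sfrp2 stood at 30.0, 38.5 and 26.9 normalised counts per 100 of Sfrp1 without the drug and at 46.7, 142 and 66.9 with it, so that Sfrp2 was above Sfrp1 in amisulpride replicate 2 alone. With 3 libraries in each group an exact two-sided permutation test cannot give a p-value below 0.1, and these shares were not tested.

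**Figure D3:**
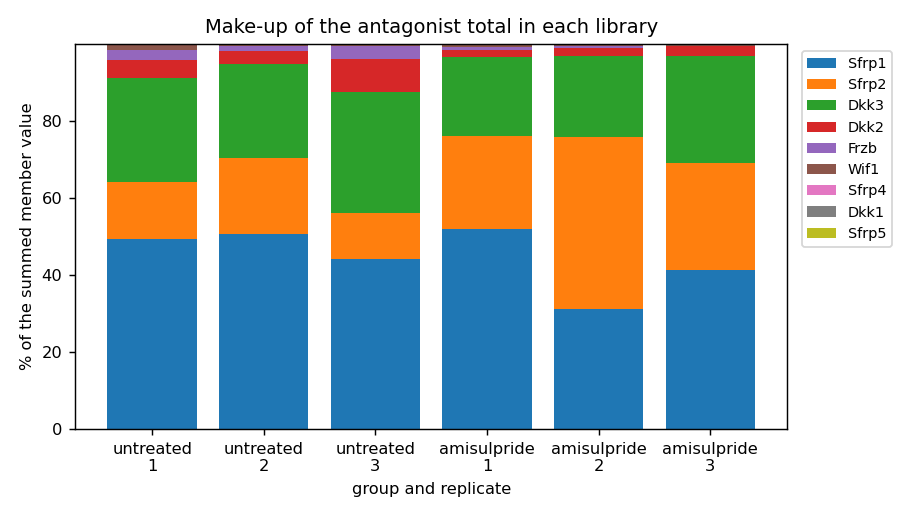
Share of each member in the summed normalised counts of the 9 antagonists (y axis, percent) in each library (x axis, group and replicate). Sfrp1, Sfrp2 and Dkk3 fill most of each bar, and the Sfrp2 share is 11.9% to 19.6% in untreated and 24.2% to 44.6% in treated libraries.

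The partners of these antagonists were described with 6 lists of other Wnt pathway genes, written from general knowledge. Of the 19 Wnt ligands, 7 were at 0 in all libraries and 4 were tested, of which 0 passed the study's thresholds (median log2 fold change 0.39). Wnt5a, which mostly signals without beta-catenin, was the most abundant ligand, with 217, 199 and 197 normalised counts in untreated and 252, 197 and 392 in treated libraries. Its groups overlapped.

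Of 16 receptors and co-receptors, 13 were tested, 2 were higher past the thresholds and 0 lower, with a median of 0.30. Of all genes tested, 2.69% were higher and 3.01% lower past these thresholds. Fzd4, a Frizzled receptor, went from 18, 17 and 20 normalised counts to 47, 56 and 50, with groups well apart and a log2 fold change of 1.43 ± 0.33 (unadjusted limma p-value of 0.00111, adjusted p = 0.103), and 1.44 without amisulpride replicate 3. Ror1, a receptor tyrosine kinase that binds Wnt5a, had 6, 9 and 8 in untreated and 18, 16 and 32 in treated libraries (1.36 ± 0.49, limma adjusted p = 0.314), and like Sfrp4 was tested through its treated values alone. Ror2, named after its values were seen, went the other way, with 56, 56 and 78 in untreated and 30, 47 and 29 in treated libraries. Its log2 fold change of -0.84 ± 0.33 (limma adjusted p = 0.363) was under the fold threshold. Ryk, another Wnt-binding receptor, was the most abundant of the list, with 1961 to 2947 in untreated and 1557 to 2565 in treated libraries.

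The 7 R-spondins and LGR receptors raise the level of Frizzled receptors at the cell surface. Of these, 5 were tested and 1, Rspo3, was higher past the thresholds (median of the list 0.44), against 2.69% of all genes tested. Rspo3, a secreted enhancer of Wnt signalling, went from 157, 179 and 187 normalised counts to 341, 648 and 426. All treated libraries were above all untreated ones, and amisulpride replicate 2 was highest, as for Sfrp2. The log2 fold change was 1.38 ± 0.28 (unadjusted limma p-value of 0.000391, adjusted p = 0.0678), and the adjusted limma p was 0.00910 with the replicate block. Without amisulpride replicate 3 the log2 fold change was 1.43, with an adjusted limma p of 0.0410. Rspo2, a related enhancer with the highest mean of the list, had 340, 483 and 514 in untreated and 586, 636 and 469 in treated libraries, which overlapped.

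Of 13 other extracellular and membrane inhibitors, 4 were tested and 0 passed (median -0.22). Apcdd1, a membrane-bound inhibitor and the most abundant of them, had 170, 117 and 93 normalised counts in untreated and 187, 139 and 127 in treated libraries, which overlapped. Of 17 intracellular components, 16 were tested and 0 passed (median 0.11). Ctnnb1, which encodes beta-catenin, had 2844, 3426 and 3900 in untreated and 4059, 3764 and 3976 in treated libraries, with a log2 fold change of 0.23 ± 0.25.

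Of 16 names listed as beta-catenin targets and feedback genes, 14 were in the table and 9 were tested (median -0.29). Past the thresholds, 2 were higher and 1 lower, against 2.69% and 3.01% of all genes tested. Nkd1 and Nkd2, related feedback inhibitors that act on Dishevelled, went in opposite directions. Nkd1 had 5, 9 and 13 normalised counts in untreated and 18, 24 and 30 in treated libraries (1.38 ± 0.49, unadjusted limma p-value of 0.0173, adjusted p = 0.311). Nkd2 had 192, 121 and 81 in untreated and 65, 60 and 32 in treated libraries (-1.29 ± 0.38, unadjusted limma p-value of 0.00604, adjusted p = 0.213, and 0.0280 with the replicate block). Jag1, a Notch ligand, had 129, 73 and 107 in untreated and 201, 149 and 293 in treated libraries (1.03 ± 0.32, limma adjusted p = 0.241). Without amisulpride replicate 3, Nkd1, Nkd2 and Jag1 had log2 fold changes of 1.21, -0.97 and 0.78, all no longer past the thresholds. Nkd1 also did not pass without untreated replicate 1 (1.05), Nkd2 without untreated replicate 1 (-0.97), and Jag1 without untreated replicate 2 (0.81). With weights per library, Nkd2 (-0.95) and Jag1 (0.94) were also under the fold threshold. Wisp1, a matricellular protein gene with the highest mean of the list over all 6 libraries, had 1232 to 3310 in untreated and 1351 to 2917 in treated libraries. Without amisulpride replicate 3 the counts of higher genes past the thresholds were 1 Wnt ligand, 1 receptor, 2 R-spondins or LGR receptors, 1 intracellular component and 0 targets, and 0 genes of the 6 lists were lower. In that fit 363 higher and 411 lower genes passed among all 12382 genes tested. Axin2, a widely used target of beta-catenin named here after its values were seen, was at 5 or below in every library, too low to be tested.

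**Figure D4:**
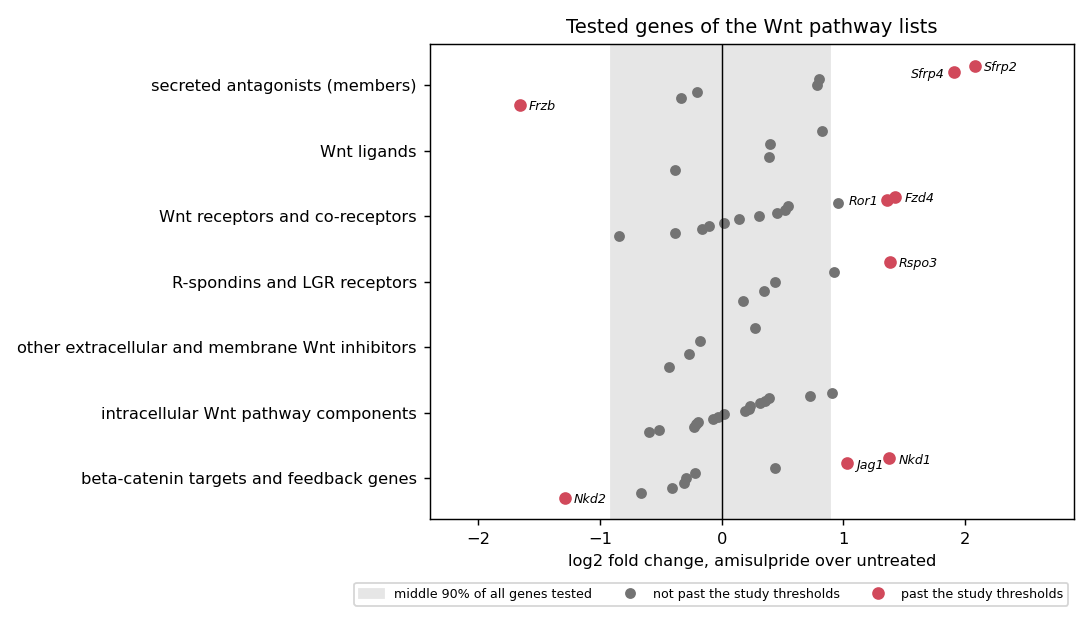
Log2 fold change of amisulpride over untreated (x axis) for each tested gene of the members and of the 6 pathway lists (rows). Each point is a gene, red and named where it passed the study's thresholds, and the grey band holds the middle 90% of all 12614 genes tested. Named genes stand in 4 of the 7 rows, and 0 genes passed among Wnt ligands, other inhibitors and intracellular components.

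The labelled cell type was compared with marker genes. All 13 synovial fibroblast markers were tested and 0 passed the thresholds, with 8 positive and 5 negative log2 fold changes (median 0.21). Summed values were 45221 to 60240 in untreated and 52114 to 91864 in treated libraries, mostly Col1a1, Col1a2, Col3a1 and Vim. Prg4, named after its values were seen, had 915, 859 and 733 in untreated and 426, 304 and 653 in treated libraries (-0.92 ± 0.29). Lum, named likewise, was at -1.07 ± 0.58 with overlapping groups. Replicate 2, where Sfrp2 was highest in both groups, was also highest in both groups for 4 of the 13 markers, against 4 for replicate 3 and 1 for replicate 1. The part of this replicate difference in the Sfrp2 values was not tested, beyond the fit with the replicate block.

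Macrophage and leukocyte markers remained detectable after the depletion of CD45+ cells. Their values summed to 2349 to 4069 in untreated and 2162 to 4108 in treated libraries. Most of each sum was Lyz2, with 3046, 1733 and 2188 normalised counts in untreated and 3287, 1879 and 1394 in treated libraries. Ptprc, which encodes CD45, had 38, 12 and 18 in untreated and 23, 5 and 5 in treated libraries. Both were named after their values were seen. Cd3e and Ms4a1, markers of T and B cells, were at 0. Of the 12 tested markers of this list, 5 had positive and 7 negative log2 fold changes, with a median of -0.14. Past the thresholds, 2 were lower and 0 higher, against 3.01% and 2.69% of all genes tested. Cd14 had 121, 69 and 76 normalised counts in untreated and 47, 25 and 13 in treated libraries (-1.74 ± 0.44, limma adjusted p = 0.144, and 0.0120 with the replicate block; -1.30 without amisulpride replicate 3), and Csf1r 114, 93 and 76 against 41, 23 and 100 (-1.01 ± 0.46, limma adjusted p = 0.456), which overlapped. In the other direction, C1qc and C1qb, complement genes of macrophages named after their values were seen, had log2 fold changes of 0.95 and 0.75 that did not pass. Csf1r no longer passed when any library but amisulpride replicate 3 was left out, and was at -0.53 without amisulpride replicate 2 and at -1.57 without amisulpride replicate 3. Chondrocyte markers, of interest for Frzb, summed to 267 to 296 in untreated and 254 to 570 in treated libraries, nearly all of it Sox9, with Acan at 0 to 2. Endothelial (1 to 15), osteoblast (5 to 19), Schwann cell (30 to 47) and muscle and pericyte markers (169 to 251) were low beside the fibroblast markers in all libraries. Of the muscle and pericyte list, Notch3 had 50 to 175 and Cspg4 31 to 93, both named after their values were seen. These are not low beside Frzb, Wif1 or Sfrp4. The part of these cells in the member values was not tested.

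**Figure D5:**
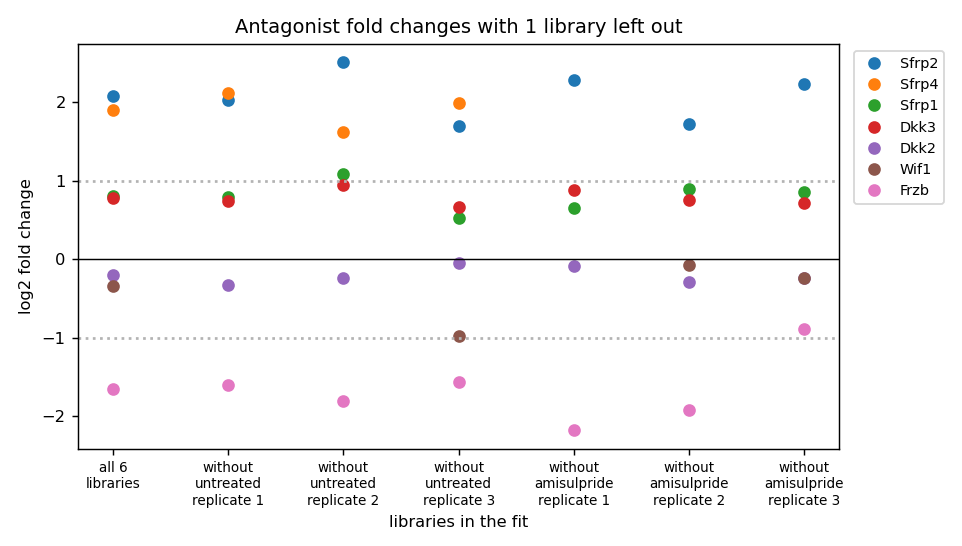
Log2 fold change of each tested member (y axis) in the fit of all 6 libraries and with each library left out in turn (x axis); dotted lines mark -1 and 1, and Sfrp4 and Wif1 have no point where too few libraries reached the filter. Sfrp2 stays between 1.70 and 2.51, while Frzb moves to -0.89 without amisulpride replicate 3.

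Across the 15 alternatives in processing and libraries, Sfrp2 passed the study's thresholds each time, with log2 fold changes from 1.70 to 2.51 and adjusted limma p-values from 0.000527 to 0.312. Sfrp4 ranged from 1.29 to 2.22 in the 11 alternatives that tested it, which says nothing of stability, since the filter at 20 and leaving out any treated library removed it from the test. Frzb kept its direction in all 15, from -2.18 to -0.89, and did not pass in the 3 named above. Dkk3 was between 0.66 and 0.94 and passed in none. Without amisulpride replicate 3, Sfrp2 was the 1 member that passed the study's thresholds.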

How the data were processed

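RNA from 3 untreated and 3 amisulpride-treated cultures of hTNFtg SFs was measured by 3′ mRNA sequencing with Ion Proton sequencing. By the methods, the authors mapped reads to mm10 with TopHat2 and then Bowtie2, counted reads per gene with GenomicRanges and normalised the counts within metaseqr by a method that is not given in the sources used here, and used DESeq for their own differential test. Versions are not given in the sources used here. The values used were the deposited normalised counts, a score whose steps between low values are those of read counts divided by a factor per library and rounded; they are not raw counts. The share of G and C per gene, deposited by the authors beside the values as a fraction, entered no test. A further 12 columns of per-library values (log2 and per gene model) and the authors' own comparison columns (p-values, adjusted p-values and fold changes) were not used.

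Genes with at least 10 normalised counts in at least 3 of 6 libraries were tested with limma 3.58.1 (R 4.3.3) on log2(value + 1) with an intensity trend, untreated against treated, with a two-sided test and Benjamini-Hochberg adjustment across the 12614 genes tested. Fold changes on that scale are too small for genes with low values. The code was tested on simulated data. No label says that equal replicate numbers share a source, and pairing was inferred from the values alone. Deviations from the group means correlated at 0.23, 0.24 and 0.20 for the same number and at -0.15 to -0.08 for different numbers. Deviations cancel out within a group, so the negative values partly follow from the positive ones. A fit with the replicate block is given where it changed a call. Alternatives were pseudocounts of 5 and 0.5, no filter or a filter at 20, TMM scaling, quantile normalisation, weights per library, no trend, the block, and leaving out each library; leaving out each library for the Sfrp2 share was chosen after seeing the data. Approximate depth (2.52 to 4.71 M reads) came from the steps between low values. Promoter windows came from RefSeq and exons and overlaps from GENCODE (GRCm38), with Python 3.11.15. All 9 members are named, and from each pathway list the genes past a call rule and the gene with the highest mean; of the markers, those past a call rule or defining ones at 0. The members and lists were chosen with earlier results of these data known. The methods call the samples biological replicates but do not say whether each came from separate animals. The p-values measure the spread between these samples.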

Additional observations from a re-analysis of the deposited data

How the results depend on the processing

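The count of genes with an adjusted limma p-value under 0.05 was 36 as reported, 57 with a pseudocount of 5, 57 without a filter, 66 after quantile normalisation, 195 with weights per library and 263 with the replicate block, and ranged from 0 to 120 with 1 library left out. The count past the study's thresholds was 719, and 1313 without a filter. Of the members, 3 passed the thresholds, or 1 to 4 with 1 library left out, with 1 (Sfrp2) without amisulpride replicate 3 and 4 without untreated replicate 2, where Sfrp1 also passed. The number of members with an adjusted limma p-value under 0.05 was 0, but 1, Sfrp2, without a filter, with weights per library and with the replicate block (paired fit), and 0 to 1 with 1 library left out, being 1 without amisulpride replicate 3. The replicate block changed no other call of a member. The median log2 fold change of the tested members was 0.78, 0.39 without a filter, and from 0.24 to 1.02 with 1 library left out. The set of tested members differed between these fits. Sfrp4 was missing when any treated library was left out, Wif1 was missing in some fits, and Dkk1 was added without a filter. Ryk, at -0.10, ranged from -0.22 to 0.13 with 1 library left out and was positive, 0.07 and 0.13, when untreated replicate 3 or amisulpride replicate 2 was missing. Csf1r did not pass in 7 of 15 alternatives. Beyond the change in the members tested, the causes were not tested. Members under about 20 normalised counts (Sfrp4, Wif1) are close to the floors, and Sfrp5 and Dkk1 could not be fitted under the filter.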
